A study of Mus musculus with 27 samples.

Results

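N2 is a putative limb enhancer at the *Nkx3-2* locus on mouse chromosome 5, and the libraries described here recorded which genomic fragments had been ligated to a viewpoint next to it. They were chosen by their labels as all libraries amplified from N2, which gave 9 of the 27 samples of the series, 3 each from forelimb, hindlimb and liver. The 6 forelimb and hindlimb libraries were pooled as limb and compared with the 3 liver libraries. All tissue came from embryos at E14.5. The labels give the strain as C57BL/6Ncrl in the sample fields and as C57BL/6NJ in the protocol, and no treatment or genetic change was named for any group. Each replicate pooled 5 to 6 embryos, so the spread between libraries covers pools of embryos together with library preparation, and no single animal can be followed. The primers of 6 viewpoints were used as one pool in the amplification.

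In 4C-Seq, chromatin is crosslinked, cut with a restriction enzyme and religated, so that fragments close together in the nucleus become joined. A primer at the viewpoint then amplifies whatever was ligated to it. Ligation is most frequent close to the viewpoint and falls off with distance along the same chromosome, and other chromosomes contribute a broad background. Enhancers act on promoters through contacts of this kind. *Nkx3-2* encodes a homeodomain repressor that holds back cartilage maturation, and the developing limb is one of the places where it is active, whereas the fetal liver is above all a blood-forming organ at this stage.

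The enzyme was *BglII*, which cuts at AGATCT, and every library lists the reads on the same 949826 fragments. The N2 primer reads toward *Nkx3-2*, on the plus strand, and lies downstream of the enhancer rather than within it. Its sequence and the end of the viewpoint fragment are shown because the libraries were designed to start there. The first line gives the nested primer at chr5:41403985-41404010 (mm10) and the next the plus strand of chr5:41403988-41404017, with the *BglII* site in capitals.
N2 nested primer: GCGATCTGAAGAACTAAGAAGCTTAG
N2 viewpoint end: atctgaagaactaagaagcttaggAGATCT

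Total counts ran from 165471 to 570405 per library. Fragments with a midpoint within 20 kb of the primer were left out, 14 fragments that took 0.906 to 19.1% of the counts in limb and 4.13 to 7.18% in liver. What remained was 133841 to 521256 counts per library, on only 2968 to 7583 fragments in limb and on 4009 to 13033 in liver. That is 0.312 to 1.37% of all fragments. Reads without molecular identifiers are not independent ligation events, so intervals and detection limits below cover counting error only. Liver replicate 3 stood apart from the other libraries in most measures of chromosome 5, and values without it are given beside the comparisons that it moves most.

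Most reads of every N2 library fell on a small set of fragments that lie on other chromosomes and recurred in both limb and liver. Of the 35647 fragments off chromosome 5 with a read in any library, 27792 had reads in 1 library only and 461 had reads in all 9. The 461 recurrent fragments held 81.5 to 93.9% of the reads off chromosome 5 in limb (median 86.6%) and 78.8 to 90.9% in liver. The 27792 fragments seen once held 1.49 to 7.43% of those reads in limb and 2.94 to 14.1% in liver. A single fragment, the highest of its library, carried 9.61 to 26.8% of all reads outside the viewpoint, and the 10 highest together carried 46.7 to 65.9%.

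**Figure D1:**
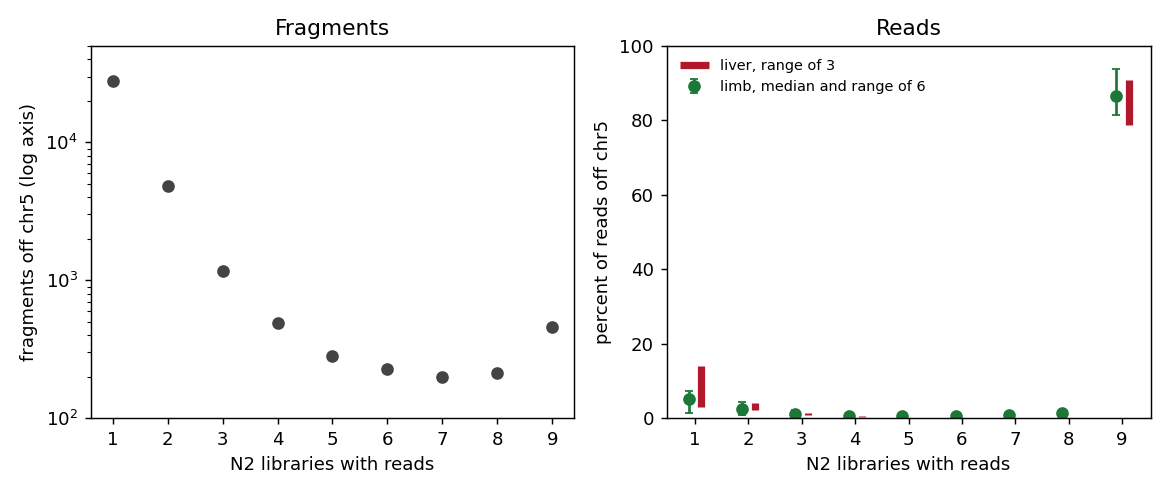
Fragments off chromosome 5 by the number of N2 libraries in which they had reads: left, how many fragments (log axis), and right, the percent of reads off chromosome 5 that they held (limb points are the median and range of 6 libraries, liver bars the range of 3). The 461 fragments with reads in all 9 libraries held between 78.8 and 93.9% of the reads in every library.

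The leading recurrent fragment was chr7:125803888-125813905, which overlaps *D430042O09Rik*. Its counts were 70607, 128068 and 17901 in forelimb, 122350, 64110 and 5643 in hindlimb and 90362, 42897 and 8960 in liver, in the order of the replicates, as below. Its share of reads was 17.4% ± 10.2 (SD, n = 6) in limb and 10.9% ± 6.65 (SD, n = 3) in liver, and the groups overlapped, with replicate 3 the lowest of each tissue.

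The intergenic fragment chr2:133569977-133579327 held 33178, 12044 and 21835 reads in forelimb, 23008, 8096 and 25049 in hindlimb and 40654, 81969 and 33983 in liver. Its share was 7.56% ± 6.01 (SD, n = 6) in limb and 14.9% ± 6.56 (SD, n = 3) in liver, again with overlap. The only protein-coding gene in its 1-Mb window is *Bmp2*, which encodes a bone morphogenetic protein.

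The next 3 were chr1:158342735-158344081 in *Brinp2*, chr13:12321057-12339009 in *Actn2*, the gene of a muscle actin-binding protein, and chr1:34740629-34743051 in *Arhgef4*. They held 6.17% ± 2.59, 5.79% ± 2.80 and 4.39% ± 2.48 of the reads in limb (SD, n = 6) and 4.04% ± 0.706, 3.87% ± 2.52 and 6.05% ± 4.53 in liver (SD, n = 3). The 1-Mb windows with the highest mean share of reads were those of the same fragments. In limb they were chr7:125000001-126000000 (17.4%), chr2:133000001-134000000 (7.57%) and chr1:158000001-159000000 (6.18%). In liver they were the chromosome 2 window (14.9%), the chromosome 7 window (10.9%) and chr1:34000001-35000000 (6.07%).

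Across the 461 fragments the mean shares in limb and in liver ranked alike (Spearman's rank correlation 0.91 across fragments, which share libraries, depth and amplification and are not independent replicates). The limb mean lay within 2-fold of the liver mean for 313 of them, was over 2-fold higher for 127 and over 2-fold lower for 21. The median log2 ratio of the limb to the liver mean was 0.466, so the middle fragment of the 461 had the higher mean share in limb. As a set they took 79.3 to 92.9% of the reads outside the viewpoint in limb and 73.2 to 89.8% in liver, so the groups overlapped. The 2-fold counts were taken without removing the median ratio. Whether single fragments differ beyond it was not tested. In the N1 libraries, amplified from another viewpoint of the locus with its own primer, 0.217 to 0.868% of the 461 fragments had reads, against 0.0365 to 0.282% of all fragments off chromosome 5. In the N3 libraries the corresponding shares were 9.54 to 21.9% and 1.52 to 3.60%, and the 461 fragments took at most 0.0937% of the reads there and at most 0.282% in N1. The leading fragment on chromosome 7 had reads in 9 of 9 N3 libraries and in none from N1.

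The recurrent fragments held stretches that resemble the N2 nested primer more often than other fragments. The best ungapped match of the 26 primer bases was sought on both strands of each fragment, and a match of 17 bases or more was counted, a limit chosen after the values had been seen. It was found in 44.9% of the 461 recurrent fragments, in 14.1% of the fragments seen in 1 library and in 9.22% of all fragments off chromosome 5. Recurrent fragments were also longer, with a median of 4621 bp against 1852 bp for all. Among fragments shorter than 2000 bp the shares were 28.7% of 87 recurrent fragments, 4.02% of those seen once and 2.69% of those without reads. For fragments of at least 10000 bp they were 62.5% of 80, 41.9% and 37.7%. Whether priming at such stretches had a part in the reads was not tested.

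The best matches in the 5 leading recurrent fragments, and in the 3 recurrent fragments outside those 5 with the most matching bases (ties by total reads), are shown so that they can be set against the primer. Capitals mark bases equal to the primer base at the same place, and each sequence is written in the orientation of the primer, from RefSeq's GRCm38.p6.
chr7:125805901-125805926 (plus strand): GgaATCaGcAGgACTgAGAAcaTggG
chr2:133571021-133571046 (minus strand): aCcgTgaGAAGAACTAAGctGCTTAG
chr1:158343355-158343380 (minus strand): atccTaTccAGAACTAAGctGaTTAG
chr13:12328739-12328764 (minus strand): GattTCTGgAGAAgaAAGActCTTtt
chr1:34740768-34740793 (minus strand): taGATgTGAAGAACaAAGAAtgcTta
chr16:32789944-32789969 (plus strand): GaGATCaGAAGAACTgAGAAGCTTgG
chr1:164744090-164744115 (minus strand): tCtATCTttAGAACTgAGAAGCgTAG
chrX:143296113-143296138 (plus strand): GCGccaTctAGAACTAAGAAaCTTAG

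The 5 leading fragments matched at 16, 19, 16, 16 and 17 of the 26 bases in this order, so that 3 of them lay below the limit. The 3 others, in *Muc20* on chromosome 16, between genes on chromosome 1 and in *Chrdl1* on the X chromosome, matched at 22, 20 and 20 bases. Their mean shares of reads were small, at 0.0643, 0.0609 and 0.0417% in limb and 0.0484, 0.0283 and 0.0637% in liver.

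Chromosome 5 held a small part of the reads outside the viewpoint, and limb and liver did not differ in it beyond the spread between libraries. Its share of reads was 2.10, 1.63 and 2.46% in forelimb, 1.25, 1.04 and 2.73% in hindlimb and 2.66, 1.22 and 7.10% in liver. Liver replicate 3 lay far above all other libraries, while liver replicate 2 lay among the lower limb values. Means were 1.87% ± 0.676 (SD, n = 6) in limb and 3.66% ± 3.06 (SD, n = 3) in liver (exact permutation test over 84 arrangements, two-sided p = 0.167). Limb minus liver was −1.79 percentage points with all libraries and −0.0699 without liver replicate 3 (exact permutation p = 0.821).

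Counted as fragments with reads rather than reads, chromosome 5 stood above its 5.46% share of all fragments in every library. It held 8.08, 7.81 and 8.61% of the fragments with reads in forelimb, 7.46, 8.05 and 9.92% in hindlimb and 9.99, 7.86 and 19.1% in liver. For single libraries the 95% Wilson interval ran from 7.06 to 8.73% in liver replicate 2 and from 18.4 to 19.7% in liver replicate 3. The means of 8.32% ± 0.867 (SD, n = 6) in limb and 12.3% ± 5.95 (SD, n = 3) in liver did not pass the test (exact permutation p = 0.0952). Limb minus liver was −3.98 percentage points, −0.600 without liver replicate 3 (exact permutation p = 0.607) and −6.20 without liver replicate 2 (exact permutation p = 0.0357).

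**Figure D2:**
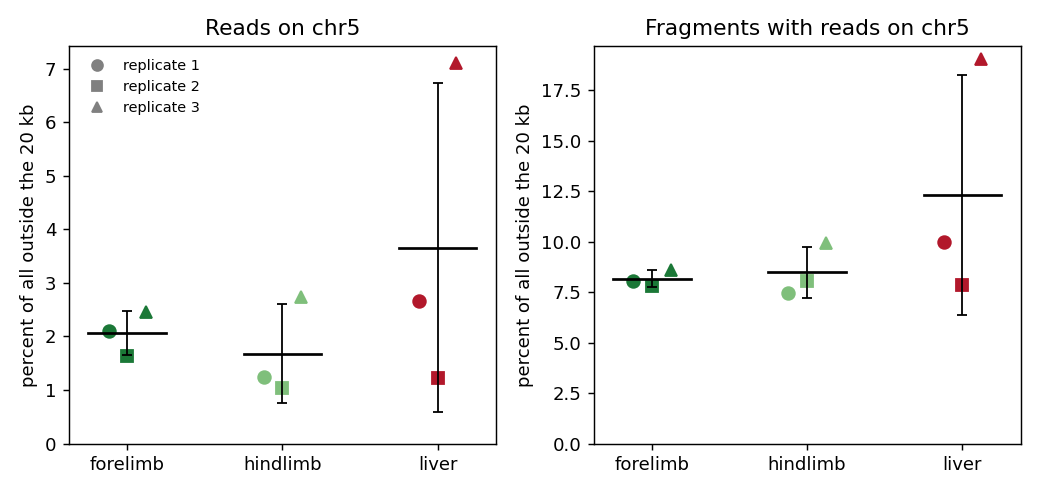
Chromosome 5 share of reads (left) and of fragments with reads (right) outside 20 kb from the N2 primer, in percent; points are libraries, black lines the mean and SD of 3 replicates. Liver replicate 3, at 7.10 and 19.1%, lies above every other library, and the other 2 liver libraries lie at or near the limb values.

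The libraries also differed in how many different fragments they caught. Thinned to 133841 reads each, a forelimb library held 4866, 5286 and 3786 fragments with reads, a hindlimb library 3321, 2368 and 3560 and a liver library 7967, 2941 and 10919. Liver replicates 1 and 3 were above all limb libraries and liver replicate 2 was below 5 of the 6. The means of 3865 ± 1064 (SD, n = 6) and 7275 ± 4034 (SD, n = 3) did not differ past the threshold (exact permutation p = 0.0714). Without liver replicate 2 the difference passed (exact permutation p = 0.0357), and without liver replicate 3 the p was 0.321 by the same exact permutation test.

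The same comparison was set beside the other viewpoints of the locus, each with 20 kb around its own primer left out. Chromosome 5 held 14.4% ± 5.11 of the reads from N1 in limb (SD, n = 6) and 17.9% ± 10.7 in liver (SD, n = 3), and 6.57% ± 0.823 and 6.99% ± 1.02 of the reads from N3. The log2 ratio of the N2 to the N3 share differed between limb and liver by −0.60 (exact permutation p = 0.357) and that of N2 to N1 by −0.46 (exact permutation p = 0.452), so neither comparison passed. Without liver replicate 3 these values were −0.06 and −0.25, without liver replicate 2 they were −1.13 and −0.72, and without hindlimb replicate 1 or 2 the latter was −0.28 or −0.17. By fragments with reads, chromosome 5 held 7.02% ± 0.321 from N3 in limb (SD, n = 6) and 8.34% ± 1.62 in liver (SD, n = 3), with every liver library above every limb library (exact permutation p = 0.0119, unadjusted). Liver replicates 1 and 2, at 7.41 and 7.41%, were only just above the highest limb library at 7.31%, and liver replicate 3 was at 10.2%. From N1 it held 13.04% ± 1.83 and 16.6% ± 9.81 (exact permutation p = 0.452).

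Off chromosome 5, no chromosome differed between limb and liver after adjustment over the 20 chromosomes tested. By reads the called share was 0% of chromosomes and none had an unadjusted p under 0.05 (smallest adjusted p = 0.833, exact permutation tests). By fragments with reads it was also 0%, again with none at an unadjusted p under 0.05 (smallest adjusted p = 0.619). edgeR's quasi-likelihood test on the same counts called 0 chromosomes by reads and 1, chromosome 9, by fragments with reads, lower in limb (log2 fold change −0.18, SE 0.05, adjusted p = 0.0148). At least 5 chromosomes would have had to reach the smallest possible p of 0.0119 for a call by permutation.

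By reads, the chromosomes of the leading recurrent fragments held the most. Chromosome 7 held 6.39 to 28.7% of the reads off chromosome 5 in limb and 6.33 to 19.7% in liver, chromosome 2 held 5.73 to 22.9% and 11.97 to 24.8%, chromosome 1 held 10.5 to 18.9% and 10.6 to 18.6%, and chromosome 13 held 7.92 to 16.4% and 6.35 to 11.96%. By fragments with reads the chromosomes were much closer to their size. Chromosome 7 held 6.24% ± 0.365 (SD, n = 6) in limb and 5.95% ± 0.258 (SD, n = 3) in liver, against 5.82% of all fragments off chromosome 5. The X chromosome held 3.62% ± 0.239 and 3.27% ± 0.485, below its 6.93% of fragments. The Y chromosome held 0.0210% ± 0.0278 and 0.0285% ± 0.0251, against 4.14% of fragments. Mitochondrial fragments had at most 17 reads and unplaced contigs at most 77 in a library.

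Along chromosome 5, limb and liver differed in 3 of 11 distance bands by fragments with reads. Liver held more downstream from 0.5 to 2 Mb and upstream beyond 10 Mb, and limb more downstream beyond 40 Mb. Bands were counted upstream, toward lower coordinates, and downstream, toward *Nkx3-2*, as a share of the chromosome 5 fragments with reads, so a higher share in one band lowers the others. The called share was 27.3% of the bands, each with the smallest possible p (exact permutation p = 0.0119, adjusted p = 0.0437 over 11 bands).

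The downstream band from 0.5 to 2 Mb was higher in liver. It held 2.24, 0.845 and 2.34% of the chromosome 5 fragments with reads in forelimb, 1.62, 0.418 and 1.70% in hindlimb and 3.10, 3.17 and 5.43% in liver. Each liver library was above each limb library, with means of 1.53% (limb) and 3.90% (liver). These shares rest on 1 to 13 fragments in a limb library and 10 to 135 in a liver library.

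The downstream band beyond 40 Mb, the part of the chromosome farthest from N2, was lower in liver. Its share was 39.7, 45.3 and 40.4% in forelimb, 45.0, 43.9 and 40.2% in hindlimb and 35.1, 37.5 and 18.3% in liver, with all liver libraries below all limb libraries. Means were 42.4% in limb and 30.3% in liver, and the band contains 47.4% of all chromosome 5 fragments. Of the 32 chromosome 5 fragments with reads in all 9 libraries, 15 lay in this band.

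Upstream, the band beyond 10 Mb was higher in liver, with 14.8, 14.7 and 15.6% in forelimb, 15.9, 15.5 and 13.3% in hindlimb and 17.2, 16.2 and 19.5% in liver. Means were 15.0% in limb and 17.6% in liver, against 19.4% of all chromosome 5 fragments. The liver values lay above the limb values with a gap of less than 1 percentage point.

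The 8 other bands did not pass by fragments with reads. From 20 to 100 kb the share was 1.52 to 4.603% upstream in limb and 0.644 to 2.86% in liver, and 0.345 to 1.18% downstream in limb and 0.845 to 1.90% in liver. From 100 to 500 kb, the band that holds *Nkx3-2* on its downstream side, it was 1.08 to 4.82% upstream and 1.89 to 5.47% downstream in limb, and 3.70 to 5.40% and 1.59 to 2.98% in liver. Upstream from 0.5 to 2 Mb and from 2 to 10 Mb the limb shares were 0.837 to 2.83% and 6.51 to 11.3% and the liver shares 2.15 to 4.91% and 9.80 to 12.4%. Downstream from 2 to 10 Mb and from 10 to 40 Mb they were 4.53 to 6.76% and 11.7 to 16.2% in limb and 5.40 to 11.4% and 11.1 to 20.5% in liver.

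**Figure D3:**
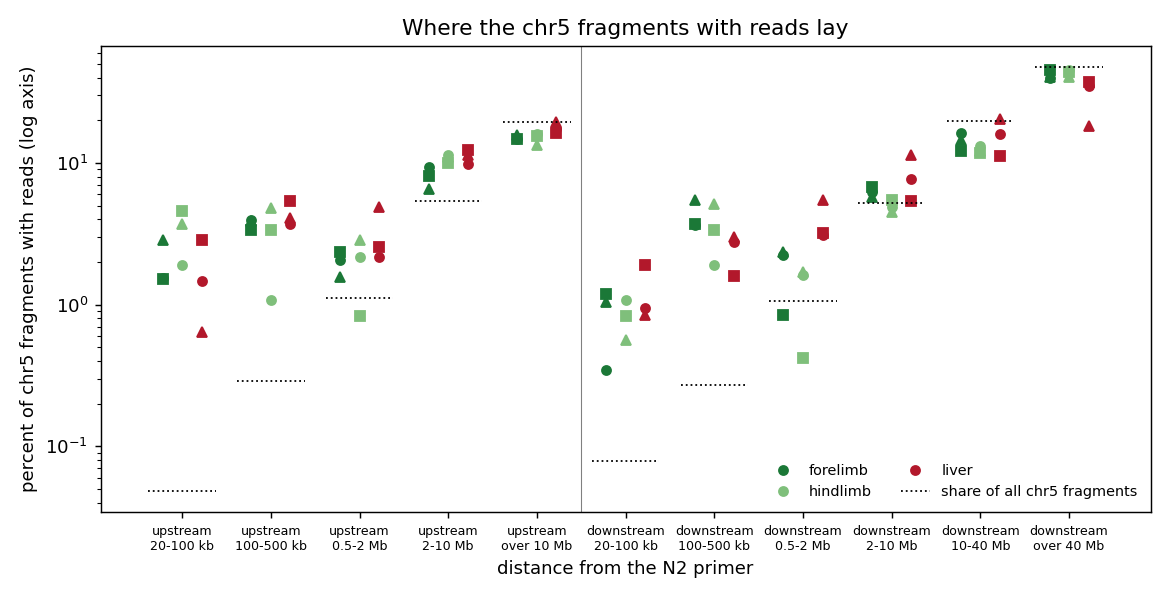
Share of chromosome 5 fragments with reads (percent, log axis) in 5 upstream and 6 downstream distance bands from the N2 primer; circles, squares and triangles are replicates 1, 2 and 3, and dotted lines the share of all chromosome 5 fragments in the band. In the downstream band from 0.5 to 2 Mb the liver points (3.10 to 5.43%) lie above the limb points (0.418 to 2.34%), and beyond 40 Mb they lie below them.

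The 3 calls were at the edge of what the design can show. Without liver replicate 3 the liver means moved to shares that differed from limb by 1.61 percentage points downstream from 0.5 to 2 Mb (exact permutation p = 0.0714), by 1.72 upstream beyond 10 Mb (exact permutation p = 0.107) and by 6.14 downstream beyond 40 Mb (exact permutation p = 0.0357), in the same directions. After thinning to equal depth, and when a fragment needed 2 reads, 0 bands passed (exact permutation tests, with 3 and 2 bands at an unadjusted p under 0.05). edgeR's quasi-likelihood test on the numbers of fragments called 2 bands, both lower in limb, downstream from 0.5 to 2 Mb (log2 fold change −1.42, SE 0.37, adjusted p = 0.0182) and from 2 to 10 Mb (log2 fold change −0.66, SE 0.22, adjusted p = 0.0447).

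By reads, 0% of the 11 bands passed, with 5 at an unadjusted p under 0.05 and a smallest adjusted p of 0.0524 (exact permutation tests). Those 5 were the upstream band from 100 to 500 kb and the downstream bands from 20 to 100 kb, from 0.5 to 2 Mb, from 2 to 10 Mb and beyond 40 Mb. Downstream from 0.5 to 2 Mb the reads made up 0.274, 0.102 and 0.214% of chromosome 5 reads in forelimb, 0.282, 0.0402 and 0.929% in hindlimb and 1.93, 0.667 and 4.49% in liver. Upstream from 100 to 500 kb they made up 2.52, 2.34 and 2.66% in forelimb, 0.664, 0.402 and 2.19% in hindlimb and 2.86, 4.32 and 6.34% in liver. edgeR's quasi-likelihood test called 1 band by reads, downstream from 0.5 to 2 Mb (log2 fold change −3.03, SE 0.96, adjusted p = 0.0263). Leaving out 10 kb instead of 20 kb on each side brought the count by permutation to 3. Without liver replicate 3, 0 bands passed by the exact permutation test and 0 had an unadjusted p under 0.05 (smallest adjusted p = 0.196). Limb minus liver then moved from −1.10 to −0.515 percentage points downstream from 20 to 100 kb, from −2.06 to −0.993 from 0.5 to 2 Mb and from −2.64 to −1.06 from 2 to 10 Mb. It moved from 15.8 to 7.68 downstream beyond 40 Mb and from −2.71 to −1.79 upstream from 100 to 500 kb.

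In the other 3 of these bands the libraries spread widely. Downstream from 20 to 100 kb limb libraries held 0.0182 to 0.512% and liver libraries 0.167 to 2.42%, and from 2 to 10 Mb 0.628 to 3.65% and 2.96 to 8.08%. Beyond 40 Mb they held 51.3 to 58.0% and 23.2 to 51.3%. A count of 0 would have allowed a share of up to 0.121% of chromosome 5 reads in hindlimb replicate 2, which had the fewest of them, and 0.0197% in liver replicate 3, which had the most.

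In every library the bands within 500 kb were more densely covered with reads than those beyond, although coverage did not fall from each band to the next. The share of a band's fragments that had reads was compared with the share off chromosome 5, which was 0.304 to 0.780% in limb and 0.412 to 1.18% in liver. Upstream from 20 to 100 kb the ratio was 46.2 to 145 in limb and 54.4 to 87.3 in liver. The share of fragments with reads in that band was itself 28.0 to 52.0% in limb and 36.0 to 68.0% in liver. A higher share off chromosome 5, as in liver replicates 1 and 3 (1.17 and 1.18%), lowers the largest ratio that a library can reach. From 0.5 to 2 Mb upstream it was 1.14 to 4.84 in limb and 3.36 to 18.0 in liver, and downstream 0.601 to 3.62 and 4.43 to 20.97, without overlap on the downstream side. Beyond 10 Mb upstream it was 1.11 to 1.31 in limb and 1.23 to 4.11 in liver.

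**Figure D4:**
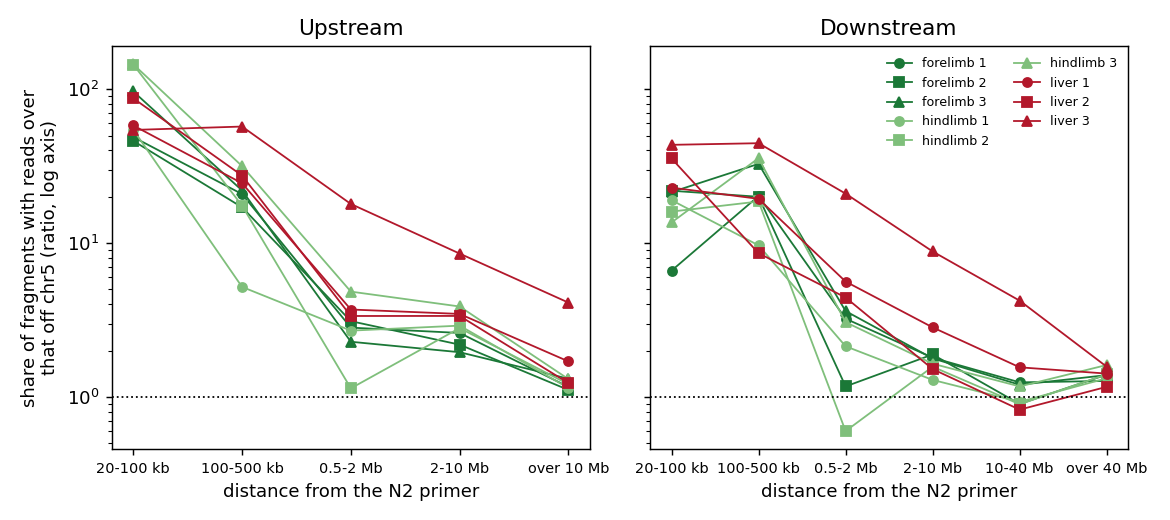
Share of a distance band's fragments that had reads, divided by the share of fragments with reads off chromosome 5 (log axis, dotted line at 1), for each N2 library upstream and downstream. Every library falls from the bands within 500 kb to those beyond, and liver replicate 3 stays highest from 0.5 to 40 Mb.

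Liver replicate 3 was the highest in all bands from 100 kb to 40 Mb. It had reads on 67.3% of the fragments from 100 to 500 kb upstream and on 52.5% downstream, where the limb libraries had reads on 2.67 to 15.3% and 4.96 to 15.6%. Liver replicate 2 had reads on 11.3 and 3.55% of the same fragments.

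Within 2 Mb no difference between limb and liver passed in the balance of the sides. The downstream side held 37.2, 35.8 and 38.6% of the reads in forelimb, 27.03, 29.8 and 28.5% in hindlimb and 51.4, 27.5 and 47.4% in liver. Means were 32.8% ± 4.96 (SD, n = 6) and 42.1% ± 12.8 (SD, n = 3; exact permutation p = 0.131), and without liver replicate 2 the difference of −16.6 percentage points passed (exact permutation p = 0.0357). All 3 forelimb values were above all 3 hindlimb values, a difference that was not tested. By fragments with reads the means were 43.6% ± 6.01 and 45.1% ± 6.03 (exact permutation p = 0.690).

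Few chromosome 5 fragments were shared across libraries. Of the 4518 with a read in any library, 1062 were seen in limb libraries only, 2726 in liver only and 730 in both. Liver replicate 3 had reads on 2484 of the 4518. No chromosome 5 fragment had reads in all 6 limb libraries and no liver library, and 13 had reads in all 3 liver libraries and no limb library. Of the 35647 fragments with reads off chromosome 5, 14267 were seen in limb only, 16038 in liver only and 5342 in both, with 2 in all limb and no liver libraries and 19 in all liver and no limb libraries. Reads in all 6 limb libraries are a stricter demand than reads in all 3 liver libraries, so these counts are not alike. With reads in 4 or more limb libraries and no liver library there were 3 fragments on chromosome 5 and 63 off it. Whether the balance differs between chromosome 5 and the rest was not tested. Within 2 Mb, pairs of limb libraries shared 8.15 to 21.4% of the fragments that either had, pairs of limb and liver 6.09 to 19.0% and pairs of liver 9.85 to 25.8%.

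The chromosome 5 fragments with reads in all 9 libraries and the most reads lay far from N2. They were chr5:142127399-142132323 in *Sdk1*, the gene of a neural adhesion molecule (4393 reads in all), chr5:112260704-112266759 in *Crybb1*, which encodes a lens crystallin (3209 reads), the intergenic chr5:30683216-30686518 (2322 reads), chr5:97079899-97083120 across *Bmp2k* and *Paqr3* (2004 reads) and the intergenic chr5:79657875-79659979 (1518 reads). The *Sdk1* fragment held 0.145% ± 0.0583 of all reads in limb (SD, n = 6) and 0.150% ± 0.0302 in liver (SD, n = 3), and the groups overlapped. The *Bmp2k* fragment held 0.0395% ± 0.0152 and 0.146% ± 0.180, with 759 of its reads in liver replicate 3. Within 2 Mb, 3 fragments had reads in all 9 libraries, all of them upstream within 40 kb. The nearest, chr5:41379126-41383901, held 15, 60 and 6 reads in forelimb, 28, 1 and 15 in hindlimb and 88, 37 and 85 in liver.

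*Rab28*, *Nkx3-2* and *Bod1l* lie downstream of N2, at 263, 359 and 412 kb from the N2 primer, and farther from the enhancer itself. *Nkx3-2* (ENSMUSG00000049691.8, chr5:41761483-41764501) with 25 kb on each side held 2, 82 and 40 reads in forelimb, 0, 2 and 50 in hindlimb and 172, 25 and 110 in liver, over 23 fragments. Limb and liver overlapped, and hindlimb replicate 1 had no read there. *Rab28* (chr5:41624976-41708157), which encodes a small GTPase, held 142, 24 and 12 reads in forelimb, 8, 0 and 2 in hindlimb and 134, 0 and 220 in liver. *Bod1l* (chr5:41787538-41844315), a gene linked to replication fork protection, held 2, 77 and 12 reads in forelimb, 0, 2 and 50 in hindlimb and 274, 1 and 144 in liver. Its flank overlaps that of *Nkx3-2*, so both gene regions share fragments.

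Among 14 protein-coding genes of the wider locus, 2 to 10 had a read in the gene or within 25 kb in a limb library (median 6.5) and 6 to 14 in a liver library (13, 6 and 14 in replicates 1, 2 and 3). Over all 1260 protein-coding genes of chromosome 5 the share was 13.3 to 25.2% in limb (median 18.7%) and 12.1 to 43.4% in liver (median 32.1%). *Cd38*, which encodes a surface enzyme of blood cells, and *Cpeb2*, the gene of an RNA-binding protein, had no read in the 6 limb libraries. They had reads in 2 of 3 liver libraries, replicates 1 and 3 (62 and 30 reads for *Cd38*, 44 and 10 for *Cpeb2*). *Bst1*, *Fbxl5* and *Cc2d2a* had a higher mean share of chromosome 5 reads in limb, each from 1 limb library. Their means were 0.149, 0.149 and 0.103% in limb and 0.0292, 0.0773 and 0.0909% in liver. *Bst1* and *Fbxl5* overlap, and each held 50 reads on 2 fragments in forelimb replicate 3, so their limb values are not independent. The other genes of the locus had the higher mean in liver.

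Of 14 genes of chromosome 5 with a role in limb and skeleton, 0 to 4 had reads in a limb library (median 3.5) and 4 to 8 in a liver library. *Shh*, the limb patterning signal, had 10 reads in liver replicate 3 and none elsewhere, *Msx1*, a homeobox gene of limb and face, had 2 reads in hindlimb replicate 1, 32 in liver replicate 2 and 2 in liver replicate 3, and *Tbx5*, which specifies the forelimb, had none in any library. *Lmbr1*, which carries the distant limb enhancer of *Shh*, had reads in 5 of 6 limb and 3 of 3 liver libraries.

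Of 11 genes of liver and blood on the same chromosome, 2 or 3 had reads in a limb library and 4, 2 and 6 in the liver replicates. The albumin gene *Alb* had 1 read in forelimb replicate 1, 2 in liver replicate 1 and 4 in liver replicate 3. *Afm* and *Cyp3a11* had reads in all 9 libraries. *Afm*, an albumin relative, held 18 to 162 reads in limb and 75 to 161 in liver, on 1 fragment in 8 of the libraries, and *Cyp3a11*, a drug-metabolizing enzyme, held 12 to 68 and 13 to 30 reads on 1 fragment throughout. The limb medians were thus 3.5 of 14 limb and skeletal genes and 2 of 11 liver and blood genes, beside 18.7% of all genes, and the liver medians 35.7 and 36.4%, beside 32.1% of all genes.

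Across 1-Mb windows of the genome, 0% of 1884 windows passed by reads (edgeR quasi-likelihood test, adjusted p under 0.05), with 118 at an unadjusted p under 0.05. DESeq2 called 2 of 1826, both lower in limb. The 3 windows with the smallest unadjusted p, none past the threshold, were chr5:36000001-37000000 (log2 fold change −3.64, SE 0.94, adjusted p = 0.241), chr6:105000001-106000000 (−6.12, SE 1.58, adjusted p = 0.241) and chr5:42000001-43000000 (−4.03, SE 1.05, adjusted p = 0.241). The first, which holds 13 protein-coding genes with *Wfs1* among them, had 2, 7 and 10 reads in forelimb, 14, 15 and 34 in hindlimb and 284, 49 and 372 in liver, libraries of unequal depth. As a share of reads, hindlimb replicate 3 was above liver replicate 2, so the groups overlapped. The last had 3, 8 and 8 reads in forelimb, 5, 1 and 32 in hindlimb and 126, 12 and 508 in liver, with hindlimb replicate 3 above liver replicate 2.

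By fragments with reads only 6 windows held enough for a test, and 0% passed (edgeR quasi-likelihood test), with 1 at an unadjusted p under 0.05 and 0 called by DESeq2. The 3 with the smallest p were all on chromosome 5, at chr5:37000001-38000000, where *Evc*, *Evc2* and *Msx1* lie (log2 fold change −1.13, SE 0.51, adjusted p = 0.252), chr5:41000001-42000000 around the viewpoint (−0.39, SE 0.21, adjusted p = 0.255) and chr5:38000001-39000000 (−0.47, SE 0.45, adjusted p = 0.592). Leaving out hindlimb replicate 3 raised the calls to 8 windows by reads and 6 by fragments with reads, of 2212 and 23 tested. Leaving out liver replicate 2 raised them to 1 and 6, and leaving out forelimb replicate 3, hindlimb replicate 1 or hindlimb replicate 2 raised the latter to 1.

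Far from N2 on chromosome 5, the fragments with reads overlapped protein-coding genes more often in limb than in liver. Beyond 2 Mb the share was 56.4, 52.6 and 54.7% in forelimb, 59.1, 58.0 and 55.4% in hindlimb and 49.9, 49.6 and 48.1% in liver, against 44.7% of all fragments there. Every limb library was above every liver library. The means of 56.0% ± 2.33 (SD, n = 6) and 49.2% ± 0.992 (SD, n = 3) differed by 6.82 percentage points (exact permutation p = 0.0119, the smallest that 84 arrangements allow). This p was not adjusted for the other measures tested, and with the replicate block it was 0.037 (exact permutation test). The difference was 6.25 without liver replicate 3 (exact permutation p = 0.0357), and it was 6.38 when all annotated genes were counted (exact permutation p = 0.0119).

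**Figure D5:**
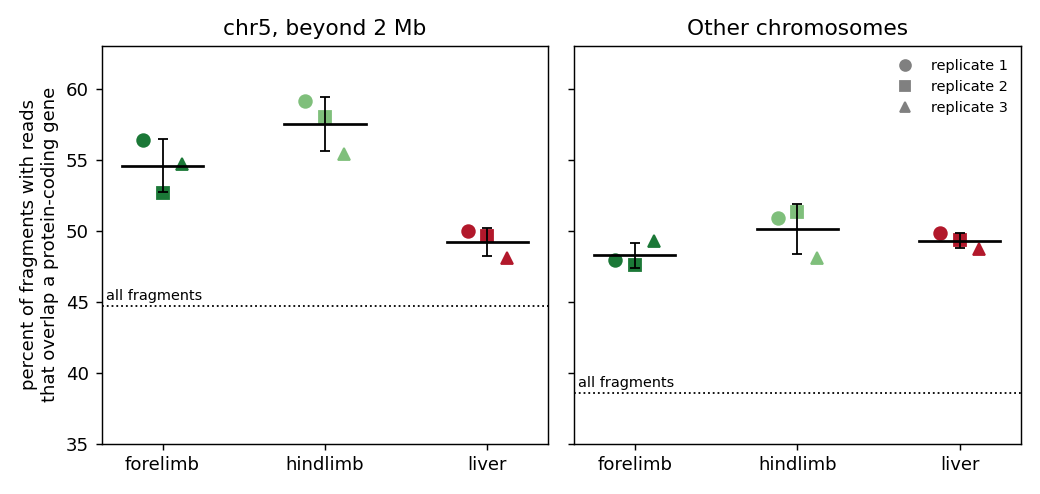
Percent of fragments with reads that overlap a protein-coding gene, on chromosome 5 beyond 2 Mb from N2 (left) and on other chromosomes (right); points are libraries, black lines the mean and SD of 3 replicates, and dotted lines the percent of all fragments. The axis starts at 35%, and limb libraries (52.6 to 59.1%) lie above liver libraries (48.1 to 49.9%) on the left but not on the right.

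Off chromosome 5 the same share did not differ, at 49.2% ± 1.59 (SD, n = 6) in limb and 49.3% ± 0.544 (SD, n = 3) in liver (exact permutation p = 0.929), both above the 38.6% of all fragments. Whether the difference on chromosome 5 departs from that off chromosome 5 was not tested.

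Fragment length and position along the chromosome moved with this result. The far chromosome 5 fragments with reads had a median length of 2833 to 4282 bp in limb and 2760 to 3228 bp in liver, and 49.6% of all far fragments of 4 kb or longer overlapped a protein-coding gene against 43.1% of the shorter ones. Among fragments of 4 kb or longer the shares were 59.6% ± 3.88 (SD, n = 6) in limb and 51.0% ± 1.51 (SD, n = 3) in liver (exact permutation p = 0.0119). Among shorter ones they were 53.6% ± 5.48 and 48.2% ± 0.983 (exact permutation p = 0.143). Downstream beyond 40 Mb, where 50.2% of all fragments overlap a protein-coding gene, they were 61.7% ± 4.15 and 54.2% ± 1.57 (exact permutation p = 0.0476), and in the rest of the far chromosome, where 39.5% do, 50.3% ± 4.56 and 46.2% ± 1.77 (exact permutation p = 0.179). From 10 to 40 Mb downstream the limb mean of 28.1% was below the liver mean of 35.7% (exact permutation p = 0.179). These subsets were chosen after the values had been seen. The part of length and position in the difference was not tested otherwise.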

How the data were processed

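Per the labels and the methods, the authors trimmed adapters with cutadapt (version 1.10), mapped reads with BWA (version 0.7.10-r789) to mm10, removed blacklisted regions and alignments of low mapping quality, and counted what was left over the *BglII* fragments. These deposited counts were raw, 1 column a library, with no pooling of replicates. Of the fragments with reads, 25.0 to 57.9% had an adjacent fragment of equal count in limb libraries. In liver replicates 1, 2 and 3 it was 70.9, 45.0 and 73.2%, so counts of fragments are not counts of independent contacts. All *BglII* sites of GRCm38.p6 coincided with fragment ends, so GENCODE vM21 gene models were used.

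Fragments were assigned by midpoint, and 20 kb on each side of the primer was left out. Shares were compared between the 6 limb and 3 liver libraries with exact permutation tests of the difference of means (84 arrangements, two-sided), adjusted by Benjamini-Hochberg over 11 bands or 20 chromosomes. Equal-depth numbers are means of 20 draws of 133841 reads. In R 4.3.3, edgeR 4.0.16 fitted the window counts (1 Mb) after filterByExpr and TMM scaling, and its quasi-likelihood test set the mean of forelimb and hindlimb against liver at an adjusted p of 0.05 (Benjamini-Hochberg). DESeq2 1.42.0 was tried in its place. Python 3.11.15, numpy 2.4.6 and pandas 2.3.3 gave the other values. The scripts were tested on simulated data. For the window fit, recovery was required only for large changes at a preset spread, not at the spread fitted to these counts.

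The named elements were chromosome 5, all bands, chromosomes with an unadjusted p under 0.05, up to 5 windows per fit and direction past the threshold or otherwise the 3 with the smallest p, the 3 windows with the most reads per tissue, the 5 fragments on and off chromosome 5 with reads in the most libraries, and 3 gene lists. The 3 further fragments shown for their primer match, chromosomes 7, 9, 13, X and Y and the nearest fragments were added after their values were seen. The members, bands and lists were chosen with earlier results of these data known. Hindlimb replicate 3 carries another replicate number in a second label, and its title was followed. The values did not settle whether the replicate numbers pair the tissues, and the main tests took the libraries as unpaired. By reads, the correlation of deviations from the tissue mean was −0.04 to 0.30 between same-numbered libraries (mean 0.116, above 0.1 in 5 of 9 pairs). Between libraries of different number it was −0.27 to 0.20 (mean −0.057). By fragments with reads it was above 0.1 in 0 of 9 same-numbered pairs. Alternatives changed the excluded width, depth, cap on high counts, read minimum, treatment of equal neighbors, scale, test, window size, filter and libraries included.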

Additional observations from a re-analysis of the deposited data

Results flagged for a closer look

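Of 29 measures tested in the 6 limb libraries for a value far from the others, 3 were flagged, and chance flags about 1 in 20. All 3 are shares of chromosome 5 reads in a band near the viewpoint. Hindlimb replicate 3 held 4.59% of its chromosome 5 reads upstream from 20 to 100 kb, where the other limb libraries held 0.593 to 1.26%, and 0.929% downstream from 0.5 to 2 Mb, where they held 0.0402 to 0.282%. Forelimb replicate 2 held 0.512% downstream from 20 to 100 kb, where the others held 0.0182 to 0.143%.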

How the results depend on the processing

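The higher gene overlap of far chromosome 5 fragments in limb kept its direction under every alternative run for the whole far chromosome and passed under all but 2, shorter fragments alone (5.38 percentage points) and the chromosome without the downstream band beyond 40 Mb (4.08), both added after seeing the data. Its sign turned in 1 single band, downstream from 10 to 40 Mb (−7.58). The count of distance bands called by fragments with reads, 3, fell to 0 after thinning, with 2 reads per fragment, with the replicate block and without fragments that hold 17 or more primer bases. It was also 0 to 0 with any library left out, but 8 libraries allow a smallest p of 0.0179 or 0.0357, and the block one of 0.037, so that 3 bands could not have passed there. By reads the band count rose from 0 to 3 with 10 kb left out and to 1 with edgeR, and the chromosome count by fragments with reads rose from 0 to 1 with edgeR. The window count by reads rose from 0 to 2 with DESeq2 and ran from 0 to 8 with a library left out. By fragments with reads it rose to 26 without the filter, to 1 with 5-Mb windows and to 1 without primer-like fragments, and ran from 0 to 6 with a library left out.

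The downstream share of reads within 2 Mb passed without primer-like fragments (−11.6 percentage points, limb minus liver) and without liver replicate 2, in a range of −16.6 to −4.62 with a library left out. The same share by fragments with reads turned to 3.29 with 50 kb left out and ran from −5.00 to 0.434 with a library left out. The chromosome 5 share of fragments with reads ran from −6.20 to −0.600 and the number of fragments at equal depth from −5578 to −1589, both past the threshold without liver replicate 2. The gene overlap off chromosome 5 turned to 0.275 with all annotated genes and ran from −0.546 to 0.190. The cause of these changes was not tested. Beside the count of bands, the replicate block raised the unadjusted p of the downstream band from 20 to 100 kb by reads above 0.05 (exact permutation p = 0.0741) and lowered those of chromosomes 2 and 11 by reads and X by fragments with reads to 0.037, its smallest, with no chromosome past adjustment (exact permutation tests). It changed no other call. Leaving out the fragments with reads in all 9 libraries, added after seeing the data, changed no count of bands or chromosomes. The small number of chromosome 5 fragments per library limits every band near the viewpoint.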
